A study of Mus musculus with 2 samples.

Results

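The genes described here are 10 regulators of alternative splicing that are tied to epithelial or mesenchymal identity: Esrp1, Esrp2, Rbfox2, Mbnl1, Mbnl2, Qk, Ptbp1, Ptbp2, Rbm47 and Celf1. They were chosen by name, and all 10 were among the 17408 genes of the table. The cells were unsorted mouse embryonic fibroblasts (MEFs) taken on day 16 of their conversion to induced pluripotent stem cells (iPSCs), driven by STEMCCA, a cassette that expresses Pou5f1, Sox2, Klf4 and Myc when doxycycline is added. Every cell of the series carries the same labelled condition, in mouse embryonic stem cell medium with serum, leukemia inhibitory factor and ascorbic acid, and no sample without the factors was compared. The cells were profiled as 2 droplet single-cell RNA-seq libraries, replicate 1 with 3109 cells and replicate 2 with 3914 cells, in which each captured RNA molecule is counted by its unique molecular identifier (UMI). Per the study, the day 16 libraries came from a pair of independent STEMCCA mouse systems. The labels leave the system of each library unnamed and give both libraries the same group, so the libraries are treated as replicates and their spread may hold technical differences, differences between mouse systems, or both, which cannot be told apart.

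Epithelial and mesenchymal cells use different exons of the same genes, and RNA-binding proteins that sit beside those exons set the choice. ESRP1 and ESRP2 promote epithelial exons, and RBM47 promotes epithelial splice forms and also takes part in messenger RNA editing in the gut. RBFOX2, QK (Quaking), MBNL1 and MBNL2 (muscleblind proteins) promote many exons of mesenchymal and differentiated cells, and MBNL proteins are known to hold back exons used in embryonic stem cells. PTBP1 represses many neural and muscle exons in most cell types, PTBP2 is its neural relative, and CELF1 often acts against MBNL proteins. Reprogramming of fibroblasts passes through a mesenchymal-to-epithelial transition. The libraries count the 3′ ends of transcripts, so the values are total transcript levels of these genes and say nothing of which exons were used.

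Cells were grouped into 16 clusters without using the 10 regulators, the other splicing genes listed below, sex-linked genes or the 4 factors, and the levels of the regulators were then read in each cluster. Cluster 6 was pluripotent-like, with all 11 of 11 listed markers raised, and held 146 cells of replicate 1 and 391 of replicate 2. Cluster 8 was fibroblast-like (252 and 167 cells, led by Spp1, Mmp3 and Col10a1), cluster 10 was smooth muscle or myofibroblast-like, called myofibroblast-like below (182 and 97 cells, led by Mylk and Thbs1), cluster 12 was epithelial-like (69 and 4 cells, led by Gpx2, Ly6d and Epcam) and cluster 15 was macrophage-like (4 and 9 cells). Cluster 8 had 10 of 11 listed fibroblast markers and 3 of 6 senescence markers raised. Cluster 10 had 6 of 6 smooth muscle or myofibroblast markers raised, and also 9 of 11 fibroblast and 3 of 6 senescence markers. Clusters 2, 7 and 9 were led by cell-cycle genes, and the others carried no name. A state entered the tests if it had at least 30 cells in both libraries, which 12 clusters did. In total replicate 1 held 54145377 UMIs and replicate 2 held 64654306, and the libraries shared 12 cell barcodes. Pluripotent-like cells were deeper, their median depth being 28768 and 26097 UMIs (replicates 1 and 2) where that of fibroblast-like cells was 13291 and 11409. Levels are therefore given as the mean over cells of the UMIs of a gene per 10000 UMIs of its cell.

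Esrp1, Esrp2 and Rbm47, the epithelial regulators, were rare in both libraries. Esrp1 (chr4:11331933-11386783 on GRCm38, minus strand) gave 75 and 102 UMIs in all, Esrp2 (chr8:106130319-106136974, minus strand) gave 19 and 17, and Rbm47 (chr5:66016549-66173118, minus strand) gave 43 and 94. Their means over all cells were under 0.1 per 10000 UMIs, so they were not tested and are given as UMIs per 1000000 UMIs (CPM) with exact Poisson 95% intervals, which cover counting error only. The 3′ ends of Esrp1 and Esrp2 overlap genes on the other strand (Gm26663 and Nfatc3), and since the sources used here do not give the strand setting of the counting, their counts are uncertain to that extent.

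Esrp1 was highest in pluripotent-like and epithelial-like cells. In pluripotent-like cells it gave 26 UMIs in replicate 1, or 6.15 CPM (interval 4.02 to 9.01), and 95 UMIs in replicate 2, or 9.17 CPM (7.42 to 11.2). The epithelial-like cells of replicate 1 gave 39 UMIs, or 25.1 CPM (17.8 to 34.3), and the 4 such cells of replicate 2 gave 3. Fibroblast-like cells gave 0 UMIs in both libraries, which allows up to 0.799 and 1.36 CPM. The pluripotent-like level exceeded the fibroblast-like level at least 7.69-fold and 6.74-fold in replicates 1 and 2, against a limit of 3 counts in each library. Against all cells outside clusters 6, 12 and 15, which held 10 and 4 UMIs, it was 29.7-fold higher (interval 13.9 to 69.0) and 124-fold higher (46.9 to 465). The interval of the epithelial-like cells in replicate 1 lay wholly above that of the pluripotent-like cells of the same library.

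The share of cells with an Esrp1 UMI ran in the same order, with overlapping intervals between pluripotent-like and epithelial-like cells after thinning. With every cell thinned to 3000 UMIs, it was 2.05% of the pluripotent-like cells in replicate 1 and 2.30% in replicate 2 (13.0% and 18.4% without thinning), and 7.25% of the epithelial-like cells of replicate 1 (39.1% without thinning, at a median depth of 21062 UMIs). It was 0% in the fibroblast-like cells of both libraries, with upper limits of 1.45% and 2.18%. After thinning these limits overlap the pluripotent-like intervals (0.426% to 5.89% and 1.06% to 4.32%). Without thinning the pluripotent-like intervals lay above the limits (8.02% to 19.6% and 14.7% to 22.6%). In all cells outside clusters 6, 12 and 15, of median depth 15084 and 13658 UMIs, the share after thinning was 0.104% and 0.0285%.

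Rbm47 was higher in pluripotent-like than in fibroblast-like cells and was also found in macrophage-like cells. Pluripotent-like cells gave 26 UMIs in replicate 1, or 6.15 CPM (4.02 to 9.01), and 77 in replicate 2, or 7.43 CPM (5.87 to 9.29). Fibroblast-like cells gave 4 UMIs and 1 UMI, for a ratio of 5.77 (2.00 to 22.7) in replicate 1 and of 16.4 (2.86 to 656) in replicate 2. Epithelial-like cells gave 8 UMIs in replicate 1, or 5.14 CPM (2.22 to 10.1), which overlaps the interval of the pluripotent-like cells. The 4 epithelial-like cells of replicate 2 gave 4 UMIs. The ratio of epithelial-like to fibroblast-like cells was 4.83 (1.29 to 21.9) in replicate 1 and 87.3 (8.64 to 4300) in replicate 2. The order of epithelial-like and pluripotent-like cells is therefore left unsettled. The macrophage-like cells, of which there were only 4 and 9, gave 2 and 8 UMIs, or 52.2 CPM (6.32 to 189) and 94.9 CPM (41.0 to 187). The interval of the latter lay above that of the pluripotent-like cells of replicate 2.

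Esrp2, the paralog of Esrp1, was near the limit of detection. It gave 0 UMIs in the pluripotent-like cells of replicate 1, which allows up to 0.709 CPM, and 9 in replicate 2, or 0.869 CPM (0.397 to 1.65). The epithelial-like cells of replicate 1 gave 7 UMIs, or 4.50 CPM (1.81 to 9.27), which was 18.1-fold (6.04 to 49.9) above all cells outside clusters 6, 12 and 15, where 12 UMIs were found. Whether Esrp2 differed between pluripotent-like and fibroblast-like cells was not detectable at this depth: the ratio in replicate 2 was 1.92 (0.265 to 84.0).

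**Figure D1:**
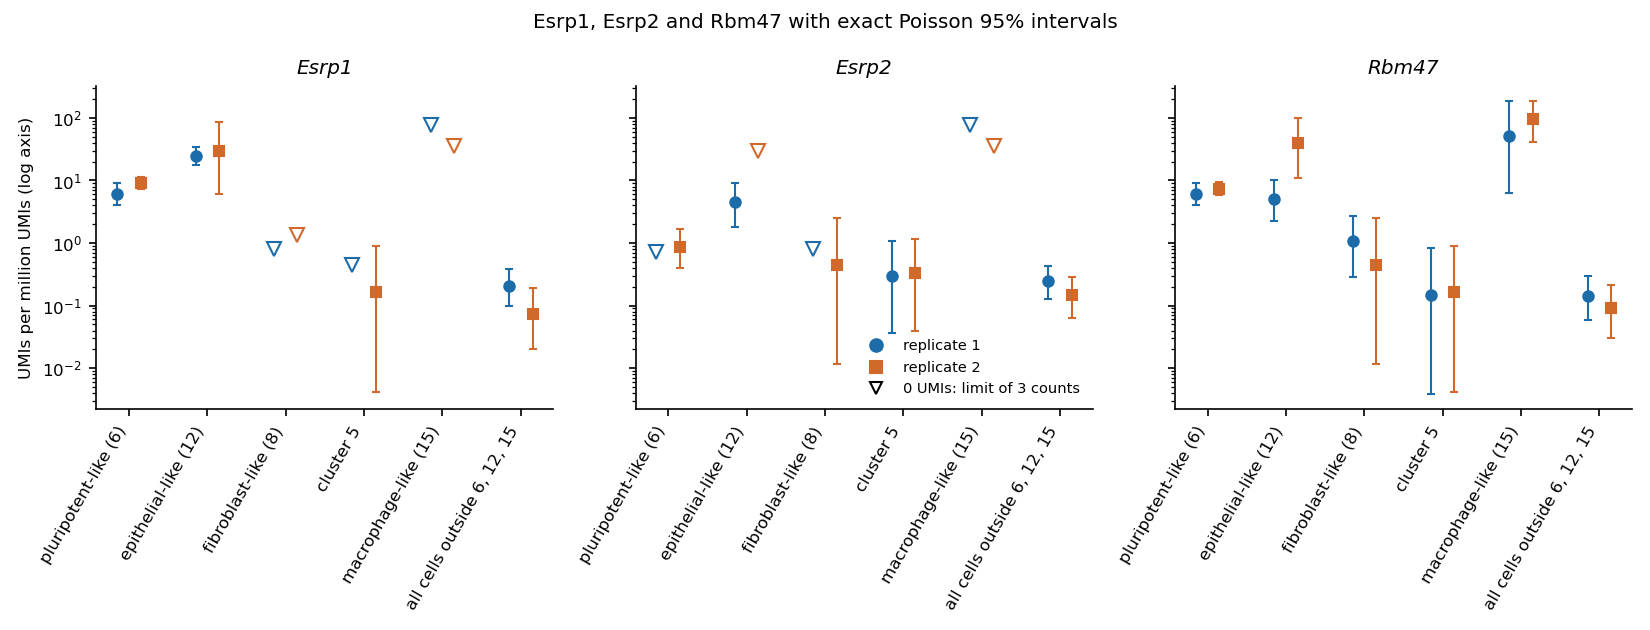
CPM, UMIs per 1000000 UMIs (log axis), of Esrp1, Esrp2 and Rbm47 in 6 sets of cells, for replicate 1 (blue circles) and replicate 2 (orange squares), with exact Poisson 95% intervals; open triangles mark 0 UMIs and stand at the limit of 3 counts. Esrp1 stood at 6.15 and 9.17 in pluripotent-like cells and at 25.1 in the epithelial-like cells of replicate 1, with no UMI in fibroblast-like cells, while Rbm47 reached 52.2 and 94.9 in the few macrophage-like cells.

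The other 7 regulators passed the filter and were tested with limma over the 12 states, with terms for state and library. A gene is called where the Benjamini-Hochberg adjusted p over the 7131 genes tested was under 0.05, and differences are on the scale of log2(mean + 0.1), with standard errors (SE). The spread in these tests is that left among the states of the same 2 libraries after both terms (17.1 total degrees of freedom with limma's moderation). The p-values therefore do not measure the spread between further independent cultures. The first question was how the pluripotent-like cells differed from the fibroblast-like cells. Of the 7 regulators, 5 were called, 2 higher and 3 lower in pluripotent-like cells, beside 78.3% of all genes tested (32.8% higher and 45.5% lower), so the share of the regulators called was near the background. With every profile centred on its median gene, the median difference of all genes moved by 0.23, from −0.18 to 0.05, and the split of all calls moved from 2339 higher and 3245 lower to 2907 higher and 2604 lower. Under that scaling the 5 regulators kept their call and direction.

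Mbnl1, Mbnl2 and Rbfox2 were lower in pluripotent-like cells. Mbnl1 (chr3:60472830-60629750, plus strand) had 0.0977 and 0.0799 UMIs per 10000 in the pluripotent-like cells of replicates 1 and 2. In fibroblast-like cells it had 0.800 and 0.654. The levels of the cell types did not overlap, and the log2 difference was −2.13 (SE 0.14, limma adjusted p = 1.69e-10). Mbnl2 (chr14:120275669-120431697, plus strand) had 0.172 and 0.296 against 1.26 in both libraries, a log2 difference of −2.05 (SE 0.11, adjusted p = 2.66e-11). Its difference was −2.32 in replicate 1 and −1.78 in replicate 2, the widest spread between libraries among the 7 regulators. Rbfox2 (chr15:77078990-77307004, minus strand) had 0.347 and 0.336 against 0.965 and 0.862, a log2 difference of −1.20 (SE 0.16, adjusted p = 2.15e-06).

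These 3 genes were also lowest in the pluripotent-like state among all 12 states. Against the mean of the 11 other states, in which 79.1% of all genes tested were called (33.2% higher and 45.9% lower), the log2 difference was −1.79 for Mbnl1 (SE 0.10, adjusted p = 2.90e-11), −1.83 for Mbnl2 (SE 0.084, adjusted p = 2.09e-12) and −0.95 for Rbfox2 (SE 0.12, adjusted p = 8.67e-07). This comparison and the one above share the pluripotent-like profiles and are not independent. In every other state and both libraries each of the 3 genes stood above its pluripotent-like levels. The nearest values were 0.181 for Mbnl1 and 0.378 for Rbfox2, both in cluster 11, and 0.544 for Mbnl2 in cluster 7.

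Qk (chr17:10202601-10319854, minus strand), also counted among the mesenchymal regulators, did not follow them. Its pluripotent-like levels were 0.386 and 0.389, and its fibroblast-like levels 0.533 and 0.438. The fibroblast-like levels were higher in both libraries, but the log2 difference of −0.26 (SE 0.12) missed the threshold (adjusted p = 0.0502), and over the alternatives its adjusted p ran from 0.0229 to 0.828. It passed with a pseudocount of 1, with summed UMIs and with coarser clusters. Against the mean of the 11 other states the difference was −0.10 (SE 0.086, adjusted p = 0.294), and the pluripotent-like state ranked 7 of 12.

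Ptbp1 and Celf1 were higher in pluripotent-like cells. Ptbp1 (chr10:79854427-79864771, plus strand) had 1.44 and 1.29 UMIs per 10000 against 0.810 and 0.642 in fibroblast-like cells, a log2 difference of 0.83 (SE 0.098, adjusted p = 4.73e-07). The 3′ end of Ptbp1 overlaps Plppr3 and Gm17134 on the other strand, which leaves its count uncertain to that extent. Celf1 (chr2:90940382-91019497, plus strand) had 0.816 and 0.759 against 0.611 and 0.502, a difference of 0.44 (SE 0.13, adjusted p = 0.00572). For both genes the levels of the cell types did not overlap. Against the mean of the 11 other states the difference was 0.64 for Ptbp1 (SE 0.072, adjusted p = 2.77e-07) and 0.48 for Celf1 (SE 0.097, adjusted p = 2.16e-04).

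Ptbp2 (chr3:119718742-119784466, minus strand) was low in both cell types. It had 0.111 and 0.115 in pluripotent-like cells and 0.0986 and 0.0790 in fibroblast-like cells, a log2 difference of 0.18 (SE 0.12, adjusted p = 0.202). With profiles centred on their median gene the difference was 0.41 and passed the threshold (adjusted p = 0.00640). Against the mean of the other states it was 0.01 (SE 0.092, adjusted p = 0.920).

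**Figure D2:**
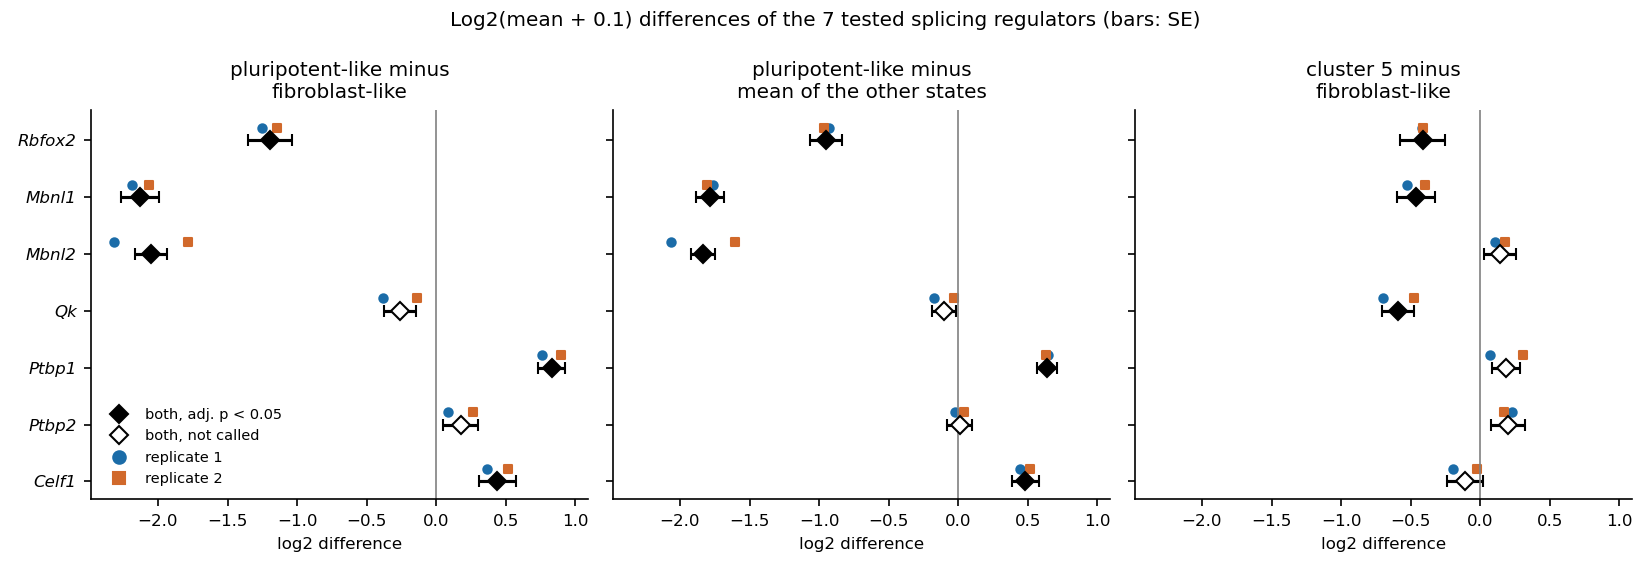
Log2(mean + 0.1) differences of the 7 tested regulators in 3 comparisons, on 1 common axis: diamonds give the limma estimate with its SE (filled where called), blue circles replicate 1 and orange squares replicate 2. Mbnl1, Mbnl2 and Rbfox2 lie between −2.13 and −1.20 in pluripotent-like minus fibroblast-like cells and Ptbp1 at 0.83, while in cluster 5 minus fibroblast-like cells all values lie between −0.59 and 0.20.

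Pluripotent-like cells also cycled more by their markers. The summed level of the 5 listed cycling genes, none of them at 0, was 7.89 and 7.62 UMIs per 10000 in pluripotent-like cells and 0.762 and 0.394 in fibroblast-like cells. The pluripotent-like cells were therefore also set against the mean of the cycling clusters 2, 7 and 9, a comparison added after the values had been seen, in which 72.9% of all genes were called. Mbnl1 (−1.82, adjusted p = 1.67e-10), Mbnl2 (−1.66, adjusted p = 5.09e-11) and Rbfox2 (−0.77, adjusted p = 4.10e-05) were lower here too. The log2 difference of Ptbp1 fell from 0.64 to 0.21 (adjusted p = 0.0258), and that of Celf1 from 0.48 to 0.19 (adjusted p = 0.130). Qk was then lower in pluripotent-like cells (−0.29, adjusted p = 0.0116). The summed level of the 6 listed senescence markers, of which 1 was at 0 in both cell types, moved the other way, with 1.51 and 2.06 in pluripotent-like cells and 13.2 and 10.9 in fibroblast-like cells, and its part in these differences was not tested.

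The next question was how the regulators varied among the 11 states outside the pluripotent-like cells. By limma's F-test 7 of 7 tested regulators were called, beside 87% of all genes tested. The range of the fitted levels over these states, on the log2 scale, was 1.84 for Mbnl1 (adjusted p = 3.79e-08), 1.40 for Mbnl2 (1.37e-07), 1.20 for Qk (3.81e-07), 1.09 for Rbfox2 (1.08e-04), 1.07 for Ptbp1 (1.05e-07), 0.81 for Celf1 (4.55e-04) and 0.56 for Ptbp2 (0.00804). Ptbp2 lost its call with coarser clusters (adjusted p = 0.283) and with finer ones (adjusted p = 0.364).

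Mbnl1, Mbnl2 and Rbfox2 were all highest in the myofibroblast-like cluster 10. Mbnl1 had 1.10 and 1.18 UMIs per 10000 there, Mbnl2 had 1.63 and 1.89, and Rbfox2 had 1.29 and 1.09. From the highest to the lowest state the mean level differed 12.8-fold for Mbnl1, 7.51-fold for Mbnl2 and 3.48-fold for Rbfox2. States that follow each other in the order were taken as apart where both libraries of the higher state exceeded both of the lower: this held for 7 of 11 neighbour pairs of Mbnl1, for 7 of Mbnl2 and for 3 of Rbfox2. The top step, from cluster 10 to the next state, was among them for all 3 genes, and so was the lowest, down to the pluripotent-like cells. For Rbfox2 no neighbours were apart between cluster 1 (0.940 and 0.910), at rank 2, and cluster 0 (0.821 and 0.775), at rank 6.

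Qk had another order. It was highest in the cycling cluster 9 (0.661 and 0.651), followed by the myofibroblast-like cluster 10 (0.635 and 0.628) and cluster 1 (0.609 and 0.572), each apart from the next. It was lowest in cluster 3, led by Tac2 and Rnase1 (0.219 and 0.240), then in cluster 5 (0.290 and 0.287), with 2.86-fold between the highest and the lowest state. The 4 and 9 macrophage-like cells, left out of the tests, had 1.33 and 3.15 UMIs of Qk per 10000, from 5 and 26 UMIs.

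Ptbp1 and Celf1 were high in the pluripotent-like state and in cluster 9 alike. Ptbp1 had 1.35 and 1.32 in cluster 9, within the range of its pluripotent-like levels, and was lowest in cluster 0 (0.607 and 0.563), 2.33-fold below the highest state. Celf1 had 0.853 and 0.775 in cluster 9, which overlapped its pluripotent-like levels, and was lowest in cluster 4 (0.443 and 0.398), 1.94-fold below. Only 4 of 11 neighbour pairs were apart for Ptbp1 and 2 for Celf1. Ptbp2 was highest in cluster 11 (0.155 and 0.201), led by Igfbpl1 and Ly6h, and apart from the next state, cluster 9 (0.141 and 0.149), which was apart from the states below. No neighbours among the other 10 states of Ptbp2, down to the fibroblast-like cells, were apart.

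**Figure D3:**
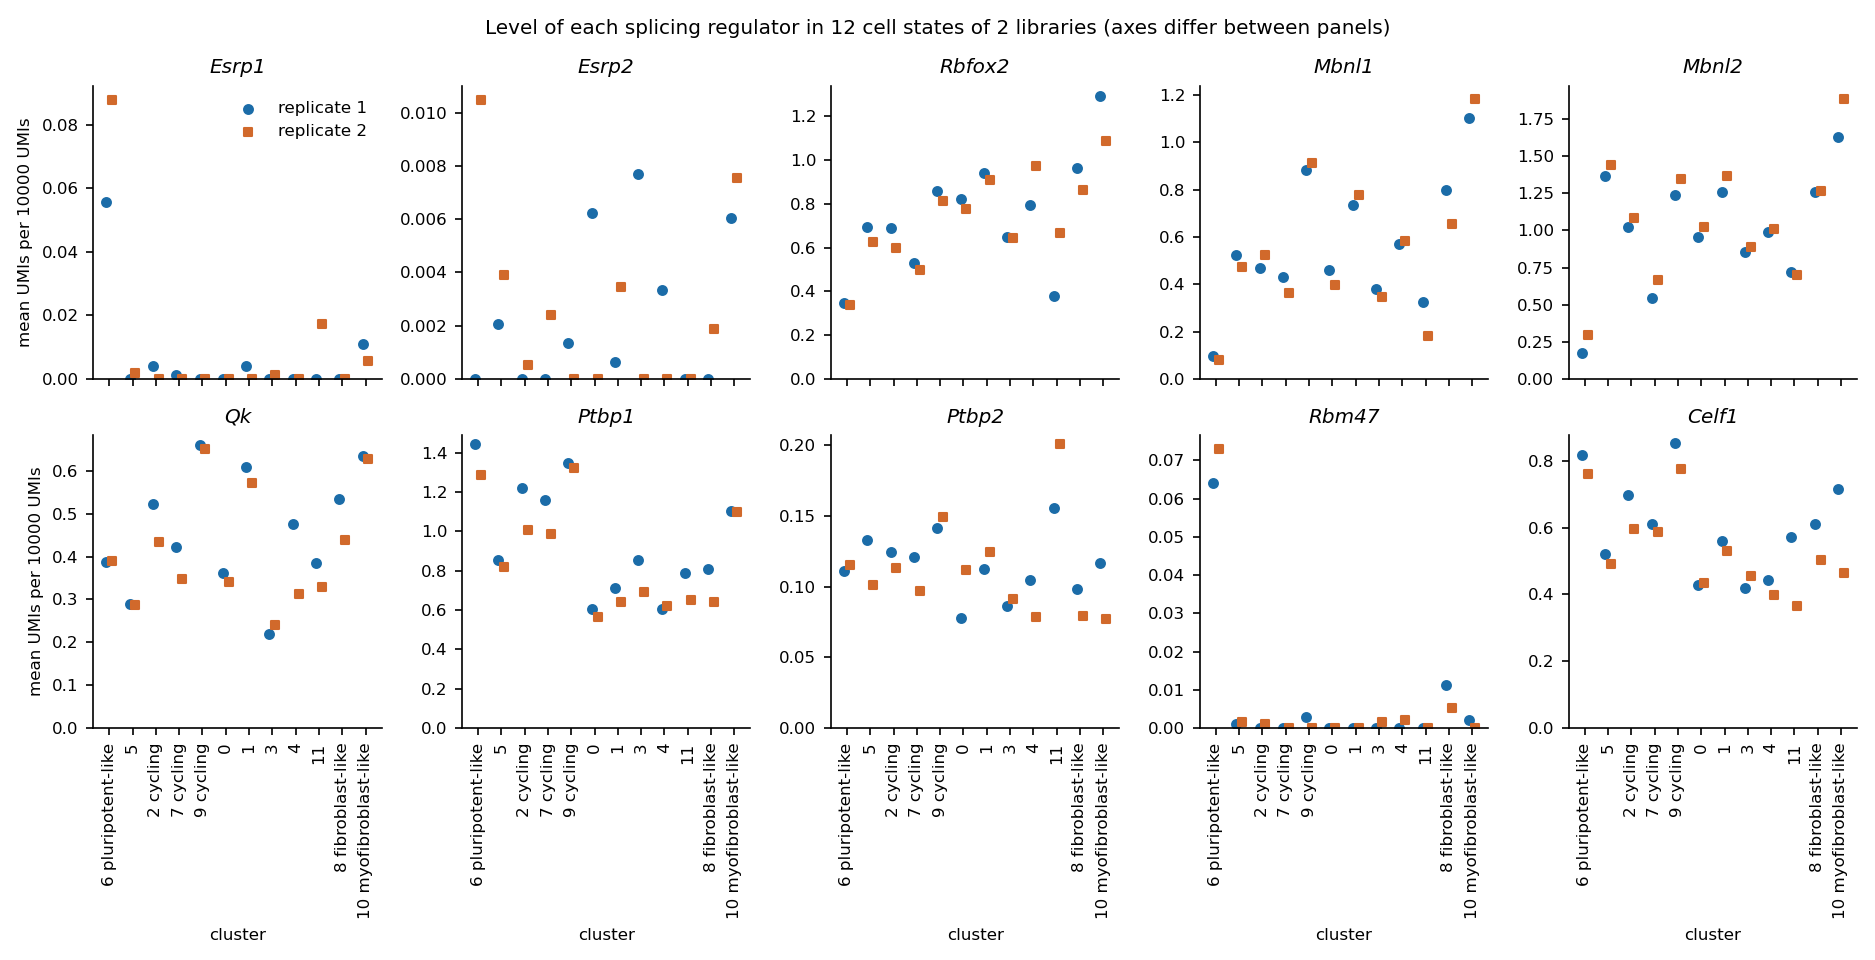
Mean UMIs per 10000 UMIs of each of the 10 regulators (1 panel each, axes differ) in the 12 states with at least 30 cells in both libraries, for replicate 1 (blue circles) and replicate 2 (orange squares). Mbnl1, Mbnl2 and Rbfox2 are lowest in the pluripotent-like cluster 6 and highest in the myofibroblast-like cluster 10, Ptbp1 and Celf1 are high in cluster 6 and in the cycling cluster 9, and Esrp1 and Rbm47 are highest in cluster 6.

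Over the 12 states the levels of some regulators ran in parallel. Pearson's r on log2(mean + 0.1) was 0.92 in both libraries between Mbnl1 and Mbnl2, 0.91 and 0.84 between Rbfox2 and Mbnl1, 0.84 in both between Rbfox2 and Mbnl2, and 0.87 and 0.81 between Ptbp1 and Celf1. Between Qk and Rbfox2 it was 0.52 and 0.40. The states of a library share its preparation and depth, so these values are given as a description. Of all genes tested, those most like Mbnl2 were Cald1 (lower r of the libraries 0.98), which encodes the actin-binding protein caldesmon, the calpain subunit gene Capn2 (0.96) and Dynlt3 (0.96). Those most like Mbnl1 were Golim4, 2310022B05Rik and Pon2 (each 0.97), and those most like Rbfox2 were Tcaf1 (0.96), the transcription factor gene Runx1 (0.94) and Dap (0.94). Ptbp1 was nearest to the spliceosome gene Sf3b3 (0.95), followed by the folate enzyme gene Mthfd2 (0.91) and the nuclear export gene Cse1l (0.91), and Celf1 to Senp1 (0.93), the spliceosome gene Eftud2 (0.91) and Mbd3 (0.91). Qk was nearest to Cdk16 (0.88), Ephb3 (0.87) and Luzp1 (0.87), and Ptbp2 only loosely to Ankrd13a (0.74), Rlim (0.67) and Lcmt1 (0.66).

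Promoters are shown for the genes whose levels ran in parallel and for which RefSeq windows were at hand, namely Mbnl1, Mbnl2, Ptbp1 and Celf1. Each window holds 300 bases of GRCm38.p6, from 250 before to 50 after an annotated transcription start, on the strand of the gene (RefSeq). Windows were found for 7 of the 10 genes, 10 windows in all, and for Esrp1, Esrp2 and Rbfox2 none was used here. Capitals mark matches on either strand to GGGCGG (GC box), to CACGTG (an E-box bound by MYC and MAX) or to CACCTG (an E-box bound by ZEB and Snail proteins).
Mbnl1, chr3:60472580-60472879, plus strand: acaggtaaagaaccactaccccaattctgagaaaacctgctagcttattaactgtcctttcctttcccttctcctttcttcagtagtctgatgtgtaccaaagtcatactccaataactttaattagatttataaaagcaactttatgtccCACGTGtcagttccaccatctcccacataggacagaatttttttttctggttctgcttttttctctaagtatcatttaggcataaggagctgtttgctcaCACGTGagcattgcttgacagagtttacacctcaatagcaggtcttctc
Mbnl1, chr3:60500929-60501228, plus strand: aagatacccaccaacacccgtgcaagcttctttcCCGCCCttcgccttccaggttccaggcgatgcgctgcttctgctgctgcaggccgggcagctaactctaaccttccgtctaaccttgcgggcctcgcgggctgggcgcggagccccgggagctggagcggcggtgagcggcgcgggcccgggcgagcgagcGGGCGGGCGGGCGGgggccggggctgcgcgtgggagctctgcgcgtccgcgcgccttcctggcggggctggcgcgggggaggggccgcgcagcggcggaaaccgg
Mbnl2, chr14:120275419-120275718, plus strand: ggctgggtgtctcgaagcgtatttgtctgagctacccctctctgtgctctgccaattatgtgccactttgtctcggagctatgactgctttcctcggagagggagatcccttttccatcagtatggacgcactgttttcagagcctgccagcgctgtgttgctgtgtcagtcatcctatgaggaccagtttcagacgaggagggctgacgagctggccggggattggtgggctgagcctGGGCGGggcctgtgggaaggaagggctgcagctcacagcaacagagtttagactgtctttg
Ptbp1, chr10:79854182-79854481, plus strand: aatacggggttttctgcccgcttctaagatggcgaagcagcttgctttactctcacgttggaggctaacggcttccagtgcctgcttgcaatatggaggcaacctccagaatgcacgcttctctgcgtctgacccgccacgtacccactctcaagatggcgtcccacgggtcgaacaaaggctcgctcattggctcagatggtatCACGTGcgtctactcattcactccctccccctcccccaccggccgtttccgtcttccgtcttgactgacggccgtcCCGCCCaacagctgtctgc
Celf1, chr2:90940147-90940446, plus strand: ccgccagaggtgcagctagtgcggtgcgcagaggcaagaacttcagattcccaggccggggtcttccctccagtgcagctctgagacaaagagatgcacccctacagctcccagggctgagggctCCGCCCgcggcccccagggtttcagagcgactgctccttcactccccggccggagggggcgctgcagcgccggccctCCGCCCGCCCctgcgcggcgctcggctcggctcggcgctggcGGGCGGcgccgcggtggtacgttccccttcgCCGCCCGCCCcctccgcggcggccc

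The windows of Mbnl1 differed from each other in base composition, with 39.3% G and C at the upstream start and 75% at the downstream one, beside 56.3% for Mbnl2, 58.3% for Ptbp1 and 74.3% for Celf1. The upstream Mbnl1 window held CACGTG 2 times and the Ptbp1 window 1 time, and no other member window held it, so 2 of 10 windows had a match beside 7.15% of the 32851 promoter windows of all genes. GGGCGG was in 7 of 10 windows, beside 35.7% of all windows, and CACCTG in 0 of 10, beside 20.2%. These are matches of letters in a short window and were not tested as binding sites. The MYC-type E-box stood in a gene that was lower and in a gene that was higher in pluripotent-like cells.

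The third question was whether the tested state with the highest epithelial marker level outside the pluripotent-like cells differed in these regulators. Clusters 12 and 13, left out of the tests, had higher mean log2 levels of the listed epithelial markers (−0.168 and −1.31) than cluster 5 (−2.46). Cluster 5, led by Perp, Krt19, Gsto1 and Msln, had the highest mean of the 11 listed epithelial markers among the other tested states. Their summed level was 1.53 and 1.93 UMIs per 10000, none of the 11 at 0, against 0.312 and 0.248 in fibroblast-like cells, where 1 was at 0. By the naming rule it was not epithelial-like, since only 2 of the 11 markers were raised, and the summed level may rest on few of them. Cdh1, which encodes E-cadherin, had 0.00976 and 0.0116, close to the fibroblast-like 0.00395 and 0.0114, and the mesenchymal filament gene Vim had 21.8 and 20.1 against 18.7 and 23.2 (log2 difference 0.01, adjusted p = 0.966). Its summed level of the 6 smooth muscle or myofibroblast markers was 50.5 and 44.2, against 25.2 and 22.3, and its part in the differences was not tested.

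Of the 7 regulators, 3 were called in cluster 5 against fibroblast-like cells, 0 higher and 3 lower, beside 52.1% of all genes tested (24.7% higher and 27.3% lower). With centred profiles the median of all genes moved by 0.11, the calls of all genes moved from 1763 higher and 1950 lower to 2324 and 1519, and 2 regulators were higher and 2 lower. Qk was lower, with 0.290 and 0.287 against 0.533 and 0.438 (log2 difference −0.59, SE 0.12, adjusted p = 4.18e-04), and Mbnl1 was lower, with 0.526 and 0.472 against 0.800 and 0.654 (−0.46, SE 0.14, adjusted p = 0.00902). Rbfox2 had 0.695 and 0.626 against 0.965 and 0.862 (−0.41, SE 0.16, adjusted p = 0.0368). Of these calls, only that of Qk held under every alternative run: Mbnl1 lost it with finer clusters (adjusted p = 0.0968), and Rbfox2 with a pseudocount of 0.01 (0.0611), without the filter on low values (0.0843), with centred profiles (0.117) and with summed UMIs (0.0792). Mbnl2 (0.14, adjusted p = 0.313), Ptbp1 (0.19, 0.121), Ptbp2 (0.20, 0.191) and Celf1 (−0.11, 0.518) were not called, and with centred profiles Ptbp1 (0.30, adjusted p = 0.0154) and Ptbp2 (0.31, adjusted p = 0.0418) were higher. Esrp1 gave 0 UMIs in replicate 1 and 1 UMI in replicate 2 in cluster 5, from 6672268 and 6119172 UMIs, and Rbm47 gave 1 UMI in each.

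The epithelial-like cluster 12 was nearly all in replicate 1, and its values there, from 69 cells, are a description without replicate. Epcam, the epithelial adhesion gene, had 7.41 UMIs per 10000, Cdh1 had 0.362 and Vim 1.34. Beside its Esrp1 level given above, it had 0.254 of Rbfox2, 0.314 of Mbnl1, 0.568 of Mbnl2, 0.331 of Qk, 1.16 of Ptbp1, 0.139 of Ptbp2 and 0.610 of Celf1. In replicate 1 the Rbfox2 value lay below those of all 12 tested states, and the Mbnl1 and Mbnl2 values lay above the pluripotent-like values of 0.0977 and 0.172 and below the fibroblast-like values of 0.800 and 1.26.

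In a further comparison, cells outside the pluripotent-like cluster 6 were split by whether they held a UMI of Cdh1 or Epcam after thinning to 3000 UMIs. There were 112 positive cells in replicate 1, of which 62 were of the epithelial-like cluster, and 25 in replicate 2, of which 1 was. A UMI of the pluripotency genes Dppa5a or Pou5f1 was left in 7.14% and 8% of the positive cells and in 7.68% and 13.9% of the negative cells. Pou5f1 is also a factor of the cassette, and whether its UMIs came from there was not tested. The median depth of positive cells was 20163 and 13372 UMIs against 15015 and 13658. Rbfox2 had 0.394 and 0.461 UMIs per 10000 in positive cells and 0.818 and 0.748 in negative cells, and the levels did not overlap. Its log2 difference of −0.74 (SE 0.19) missed the threshold (limma adjusted p = 0.0543), and over the alternatives its adjusted p ran from 0.0218 to 0.506. Without the epithelial-like cluster the difference was −0.50 (adjusted p = 0.191). Of the 7 regulators, 0 were called with limma, beside 7.07% of all genes tested (5.71% lower), and 1 had an unadjusted p under 0.05, beside 23.6%. Mbnl1 (−0.42, adjusted p = 0.224), Mbnl2 (−0.34, 0.337), Qk (−0.21, 0.546), Ptbp1 (0.20, 0.561), Celf1 (0.11, 0.764) and Ptbp2 (0.02, 0.959) were not called. The low genes rested on few molecules in these cells. The epithelial-like cluster gave 39 UMIs of Esrp1, 7 of Esrp2 and 8 of Rbm47 in replicate 1, and most of its cells are among the positive ones. The values of these genes below are therefore not independent of those of that cluster, and they were not read without it. In replicate 1 Esrp1 gave 35 UMIs in positive cells, or 14.8 CPM (10.3 to 20.6), and 14 UMIs in negative cells, or 0.294 CPM (0.161 to 0.494). In replicate 2 it gave only 2 UMIs in positive cells, or 4.74 CPM (0.574 to 17.1), and 5 in negative cells, or 0.0928 CPM (0.0301 to 0.217). Rbm47 gave 8 UMIs in the positive cells of replicate 1, or 3.39 CPM (1.46 to 6.68), against 0.189 CPM (0.0865 to 0.359) in negative cells, while in replicate 2 its 2 UMIs came from 1 positive cell. Esrp2 gave 6 UMIs in the positive cells of replicate 1 and 0 in replicate 2.

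The transcription factors that drive the mesenchymal programme gave the setting. ZEB1, ZEB2, SNAI1 and SNAI2 are known as repressors of epithelial genes. Zeb1 had 0.136 and 0.125 UMIs per 10000 in pluripotent-like cells, 0.708 and 0.769 in fibroblast-like cells (log2 difference −1.86, adjusted p = 1.60e-10) and 0.301 and 0.264 in cluster 5 (−1.13 against fibroblast-like cells, adjusted p = 5.23e-07). Zeb2 had 0.0174 and 0.0116 in pluripotent-like cells, 0.382 and 0.333 in fibroblast-like cells (−2.0, adjusted p = 6.09e-10) and 0.0624 and 0.0975 in cluster 5 (−1.35, adjusted p = 4.84e-07). In the epithelial-like cells of replicate 1 Zeb1 was at 0.0409, from 5 UMIs, and Zeb2 had 0 UMIs. Snai1 had 0.00585 and 0.00717 in pluripotent-like and 0.151 and 0.112 in fibroblast-like cells, and Snai2 had 0.00363 and 0.00688 against 0.521 and 0.335, both under the filter and untested. Of the cadherin and adhesion genes, Cdh1 had 0.326 and 0.436 in pluripotent-like cells, Epcam 1.18 and 1.26, and Cdh2, which encodes N-cadherin, 0.00416 and 0.00252 against 0.0469 and 0.0171 in fibroblast-like cells. Vim was lower in pluripotent-like cells, with 1.35 and 1.21 (−3.92, adjusted p = 3.07e-14).

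The other splicing genes were examined by lists, in pluripotent-like against fibroblast-like cells, where 78.3% of all genes tested were called (32.8% higher and 45.5% lower). Of the 9 listed paralogs of the regulators, 3 could be tested, of which 0 were higher, 2 were lower and 1 was not called: Celf2 (0.0337 and 0.0663 against 0.249 and 0.175, log2 difference −1.06) and Ptbp3 (0.236 and 0.313 against 0.566 and 0.461, −0.71) were lower. Of 18 genes listed as other tissue-restricted splicing regulators, 4 could be tested, of which 0 were higher and 3 lower. These were the RNA-binding protein genes Rbms1 (0.252 and 0.290 against 2.71 and 2.58, −2.89), Rbms3 (0.0341 and 0.0189 against 0.589 and 0.672, −2.53) and Msi2, or Musashi-2 (0.250 and 0.386 against 0.537 and 0.474, −0.55). With centred profiles this list had 1 higher and 2 lower. The name of the list is a label only, and whether its genes are tissue-restricted or act in splicing in these cells was not tested. The shares called, 66.7% of the paralogs and 75% of the other regulators, were near that of all genes and say little about these lists.

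Most tested genes of the general splicing machinery were higher, beside 32.8% higher and 45.5% lower among all genes tested. The SR proteins and Tra2 include activators of exon inclusion. Of 12 tested genes of this list, 10 were higher, 0 lower and 2 not called. Their median log2 difference was 0.78, beside −0.18 for all genes tested. The largest rises were of Srsf7 (2.08), Srsf3 (1.71) and Srsf2 (1.49). Of 18 hnRNP genes, 15 were higher, 1 was lower and 2 were not called, with a median of 0.79, led by Hnrnpd (2.08), Hnrnpm (1.39) and Hnrnpf (1.20). Hnrnph2 was lower (−0.34, adjusted p = 0.0180), a call it lost with centred profiles. Of 19 core spliceosome genes, 19 were higher, with a median of 0.89, led by the 3′ splice site factor gene U2af1 (1.93), Snrpd1 (1.42) and Snrpa (1.30). Under centred profiles and summed UMIs the direction of these 3 lists was unchanged.

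Against the mean of the 11 other states the medians were 0.72 for the core spliceosome, 0.55 for the SR and Tra2 list and 0.52 for the hnRNP list. With only the cycling clusters 2, 7 and 9 in place of these states they were smaller, and 72.9% of all genes were called, 1949 higher and 3248 lower, with a median of −0.17. The core spliceosome then had 15 of 19 genes higher and 0 lower, with a median of 0.31. The SR and Tra2 list had 7 of 12 higher and 0 lower, with a median of 0.25, and the hnRNP list had 6 higher and 5 lower, with a median of −0.02.

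**Figure D4:**
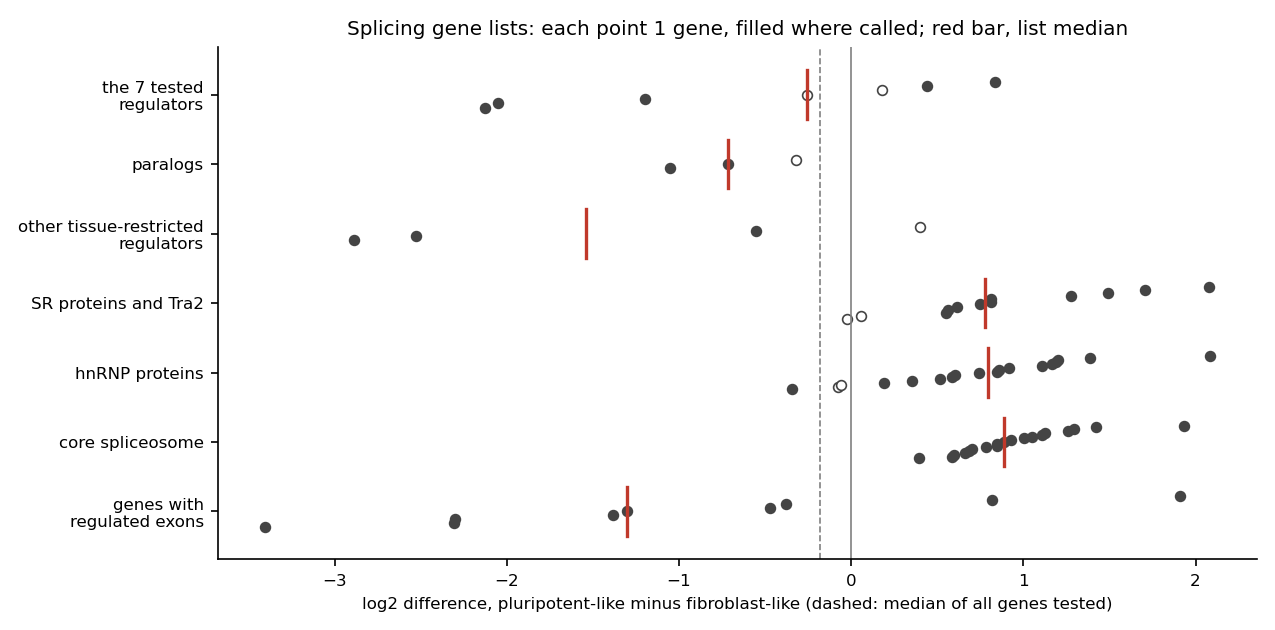
Log2(mean + 0.1) differences of pluripotent-like minus fibroblast-like cells for the 7 tested regulators and 6 lists of splicing genes, with 1 point per tested gene, filled where called; red bars give each list's median and the dashed line the median of all genes tested (−0.18). The SR and Tra2, hnRNP and core spliceosome lists have medians of 0.78, 0.79 and 0.89, while the 7 regulators lie on both sides of 0 with a median of −0.26.

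Last, genes with exons that these proteins are known to regulate were read for their total transcript level. Of 12 listed, 9 could be tested, of which 2 rose and 7 fell in pluripotent-like cells, with a median log2 difference of −1.30, beside 32.8% higher, 45.5% lower and a median of −0.18 over all genes tested; with centred profiles 2 were higher and 5 lower. Enah, an actin regulator gene with an epithelial exon, was higher (2.65 and 2.39 UMIs per 10000 against 0.638 and 0.555, log2 difference 1.91), as was Pkm, the pyruvate kinase gene whose exon choice involves PTBP1 (14.2 and 15.8 against 6.75 and 10.6, 0.82). Cd44, a cell surface receptor gene with variable exons that ESRP1 promotes, was lower (0.0373 and 0.0472 against 1.48 and 1.33, −3.40), and so were the tropomyosin gene Tpm1 (1.24 and 1.23 against 7.31 and 5.81, −2.31) and Foxp1 (0.337 and 0.378 against 2.38 and 1.95, −2.30), a transcription factor gene with an exon of embryonic stem cells that MBNL proteins repress. Fgfr2, whose exon choice is a standard mark of the epithelial state, had 0.00723 and 0.00718 against 0.0363 and 0.0556 and could not be tested.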

How the data were processed

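Mouse cells at day 16 of STEMCCA reprogramming were measured as 2 libraries of 1 group by 3′ single-cell RNA-seq. Per the labels and the methods, the authors mapped and counted reads with Cell Ranger 2.1.1 on mm10, retained cells of over 1500 and under 6000 genes with less than 9% mitochondrial reads, and normalised with Seurat. The authors deposited natural log values, ln(1 + UMIs per 10000), from which whole UMIs were recovered. The sources used here give neither doublet removal nor the strand setting, and no doublet caller was run.

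Cells were clustered without 702 genes (the regulators, the splicing lists, X and Y genes and the 4 factors) in scanpy 1.11.5 with leidenalg 0.10.2 (30 components, 15 neighbours, resolution 1). A cluster was named where at least 3 markers and 50% of a class were raised and its 10 leading genes did not favour another class. Each of the 12 states with at least 30 cells in both libraries gave 1 profile a library. These were fitted with limma 3.58.1 in R 4.3.3 on log2(mean + 0.1), with state and library as terms, for the 7131 genes whose overall mean reached 0.1. The library term is the pairing, since states of 1 library share its preparation; the replicate numbers follow accession order. Comparisons share profiles. Genes under the filter were given by UMIs with exact Poisson 95% intervals, and a count of 0 as the limit of 3 counts. Tested on simulated data for the pluripotent-like against fibroblast-like comparison (7131 genes, 200 changed), the fit recovered 88% of 2-fold and 99% of 4-fold changes. The simulation assumed a fixed spread between profiles and gave the other genes no difference between these cell types. In the data 78.3% of genes were called in this comparison, so these recovery rates need not hold there.

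All 10 regulators and 8 context genes were named. Up to 3 called genes with the largest rise and the largest fall were named per list, and for each tested regulator the 3 most alike genes by the lower r of both libraries. Hnrnph2 was the only called fall of its list, and Fgfr2 was named after its values were seen. The regulators and lists were chosen with earlier results of these data known. Gene positions are from GENCODE M21 (GRCm38). Alternatives were the pseudocount, the filter, centring, summed UMIs, a mean-variance trend, the library term, cluster resolution, cycling clusters as the comparison, other definitions of positive cells and leaving out each replicate. Centring, the mean-variance trend, the cycling clusters as the comparison and leaving out the epithelial-like cluster were chosen after seeing the data.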

Additional observations from a re-analysis of the deposited data

How the results depend on the processing

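The numbers of regulators called were within 1.5 times the reported ones under every alternative that could be tested, except for cells with Cdh1 or Epcam. There the count rose from 0 to 1, by Rbfox2, with a pseudocount of 1 (log2 difference −0.32, limma adjusted p = 0.0403), a mean-variance trend (−0.74, 0.0218), centred profiles (−0.72, 0.0387) and summed UMIs (−0.82, 0.0272). No regulator with a call reversed its direction. Without the library term as replicate block the pairing was ignored, and 5, 5, 3, 0 and 7 regulators were called in pluripotent-like against fibroblast-like cells, against the other states, in cluster 5, in cells with Cdh1 or Epcam and across the other states, so no count moved. Leaving out 1 replicate left no residual degrees of freedom and gave values with no test: for Mbnl2 in pluripotent-like against fibroblast-like cells they ran from −2.32 to −1.78. Epithelial-like cells were nearly all from 1 library, and with 2 libraries an exact sign-flip test cannot go below p = 0.5. Esrp2 and the macrophage-like cells are limited by counts. The cause of the changed calls was not tested.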

Other observations

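Clusters outside the tests gave further values of the regulators. The macrophage-like cells, 4 in replicate 1 and 9 in replicate 2, had 1.70 and 1.41 UMIs of Mbnl1 per 10000 and no UMI of Rbfox2, which at their small total is not a test of absence. Cluster 13, led by Trf, Saa3 and Krt7 and with 41 of its cells in replicate 2, had 1.04 of Rbfox2 and 1.82 of Mbnl2 there and 0 UMIs of Esrp1. It carried no name, with 5 of 11 listed epithelial, 3 of 11 fibroblast and 3 of 6 senescence markers raised.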
